A study of Danio rerio with 4 samples.

Results

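The SoxB genes encode transcription factors with an HMG DNA-binding domain that mark and maintain neural progenitors. Their B1 members (sox1a, sox2, sox3, sox19a and sox19b in the zebrafish) mostly act as activators and keep cells of the neural plate in a progenitor state, whereas the B2 members (sox21a and sox21b) are best known as repressors that act against B1 factors on shared sites. In mammals, Sox2 binds DNA side by side with the POU factor Oct4, of which zebrafish Pou5f3 is the counterpart. The 7 SoxB genes were described here from the probe sets (groups of short oligonucleotides read as 1 signal) whose gene symbol in the array annotation is 1 of these names. They came to 14 probe sets, out of 15502 on the array besides the manufacturer's controls. The genes sox2, sox3 and sox1a had 3 probe sets each, sox19b had 2, and sox19a, sox21a and sox21b had 1 each. The SoxB genes sox1b and sox14 had no probe set with their symbol and were not analysed here. The NCBI gene IDs in the annotation are 436756 for sox1a, 378723 for sox2, 30529 for sox3, 30038 for sox19a, 64812 for sox19b, 30543 for sox21a and 406246 for sox21b.

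The arrays compared heat-shocked embryos that carried the en-pou5f3 transgene with heat-shocked wild-type siblings, at 90% epiboly (late gastrulation) and at 3-ss (3 somites). These stages are those at which the heat shock was given, so the embryos were older when collected. The transgene, carried on 1 of the paired chromosomes, joins the repressor domain of Drosophila Engrailed to Pou5f3 under a heat shock promoter, which is not restricted to a tissue. The 4 groups were en-pou5f3 embryos at 90% epiboly, wild-type embryos at 90% epiboly, en-pou5f3 embryos at 3-ss and wild-type embryos at 3-ss. All were raised at 25 °C, came from crosses of hemizygous carriers of the RW strain with wild-type fish, were kept at 37 °C for 60 min and collected 30 min later, and were sorted by PCR of each embryo. RNA of whole embryos was pooled by genotype, and 250 ng went into the labelling. Each group has 1 array, so no difference below has a replicate check and no p-value is given. A difference is called here from 2-fold upwards. As the only spread the data hold, the SD of the log2 ratio between probe sets of 1 gene was 0.27 at 90% epiboly and 0.34 at 3-ss (1002 and 1028 genes with several probe sets), which contains no variation between embryos. A genotype ratio is given on the log2 scale, as en-pou5f3 divided by wild-type. Signals below a floor of 32.4 were first raised to it. The floor is the 95th percentile of the signals of control probe sets that have no target in the embryo.

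The scaling of the deposited signals sets the trimmed mean of each array to 500.1, and 71.3% to 74.4% of probe sets reached the floor. The pou5f3 probe set, which may read the endogenous gene, the transgene or both, had signals of 8284 in en-pou5f3 and 5473 in wild-type embryos at 90% epiboly, and of 2138 in en-pou5f3 and 1277 in wild-type embryos at 3-ss. A control probe set of the manufacturer with no named target gave 5531 in en-pou5f3 and 109.7 in wild-type embryos at 90% epiboly, and 14534 in en-pou5f3 and 1670 in wild-type embryos at 3-ss. Its signal on the wild-type array of 3-ss was thus 15.2 times that on the wild-type array of 90% epiboly. A second, dim control probe set had 62.9 in en-pou5f3 and 6.35 in wild-type embryos at 90% epiboly, and 111 in en-pou5f3 and 37.6 in wild-type embryos at 3-ss. Whether these bear on the SoxB signals was not tested, and with 1 array a group no array can be left out. The RNA came from whole embryos, so fewer cells that express a gene and less RNA per cell cannot be told apart.

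At 90% epiboly the SoxB genes moved in different directions. By the probe set with the highest mean signal, sox2, sox3 and sox21b were called lower in en-pou5f3 embryos and sox1a was called higher, while sox19a, sox19b and sox21a stayed within 2-fold. Of all 11594 probe sets measured at this stage, 2.25% were called lower and 1.30% higher, against 3 and 1 of the 7 genes. The median log2 ratio over the 7 genes was -0.04, against 0.03 over all probe sets. At 3-ss, sox3, sox21a and sox21b were called lower and none of the 7 genes was called higher. Of 11970 probe sets measured at 3-ss, 1.94% were called lower and 1.80% higher. The median over the SoxB genes was -0.85 at this stage, against 0.01 over all probe sets. Thus sox3 and sox21b were called lower at both stages, sox2 at 90% epiboly and sox21a at 3-ss.

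**Figure D1:**
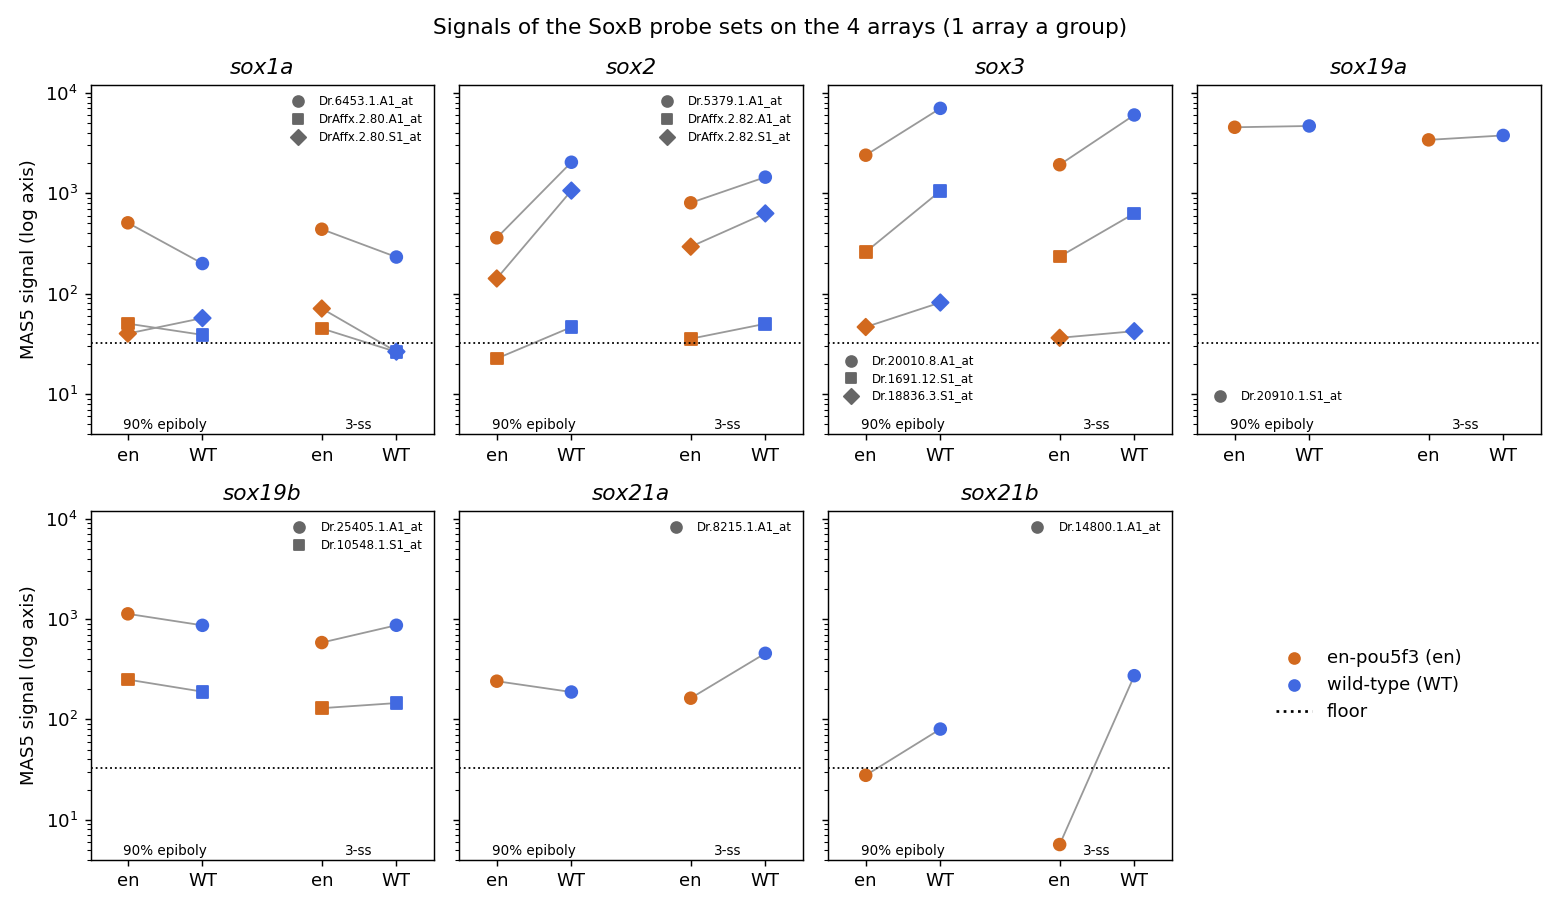
Deposited MAS5 signal (log axis) of all 14 SoxB probe sets on the 4 arrays, en-pou5f3 in orange and wild-type in blue, with lines joining the 2 genotypes of a stage and the floor of 32.4 dotted. The sox3 and sox2 lines climb towards wild-type at both stages, the sox19a lines are nearly flat, and sox21b lies under the floor on both en-pou5f3 arrays.

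The gene sox2 is in vertebrates a general factor of neural progenitors and of the sensory placodes. Leaving out sox21b, whose decrease is a bound, sox2 had the largest decrease of the SoxB genes at 90% epiboly. Its brightest probe set had signals of 360 in en-pou5f3 and 2037 in wild-type embryos at 90% epiboly, and of 803 in en-pou5f3 and 1447 in wild-type embryos at 3-ss. The en-pou5f3 signal was thus 5.66-fold lower at 90% epiboly (log2 ratio -2.50) and 1.80-fold lower at 3-ss (-0.85). Only 0.31% of measured probe sets had a ratio as low as this at 90% epiboly. A second sox2 probe set gave 141 in en-pou5f3 and 1062 in wild-type embryos at 90% epiboly, and 293 in en-pou5f3 and 629 in wild-type embryos at 3-ss. Its decrease was 7.51-fold at 90% epiboly and 2.15-fold at 3-ss, so that at the later stage 1 sox2 probe set passed 2-fold and the brightest did not. The third stayed near the floor, between 22.5 and 50.0 on the 4 arrays, and had log2 ratios of -0.51, a bound, at 90% epiboly and of -0.49 at 3-ss. All sox2 probe sets were therefore lower in en-pou5f3 embryos at both stages, by different amounts.

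The gene sox3, a B1 factor of the early epiblast and neural plate, was called lower at both stages. Its brightest probe set had signals of 2394 in en-pou5f3 and 7013 in wild-type embryos at 90% epiboly, and of 1923 in en-pou5f3 and 6022 in wild-type embryos at 3-ss. These are decreases of 2.93-fold (log2 ratio -1.55) and 3.13-fold (-1.65), and at 3-ss 0.48% of measured probe sets had a ratio as low. A second probe set had signals of 260 in en-pou5f3 and 1053 in wild-type embryos at 90% epiboly, and of 234 in en-pou5f3 and 629 in wild-type embryos at 3-ss, which are 4.05-fold and 2.69-fold decreases. The third was dim. It gave 46.5 in en-pou5f3 and 81.5 in wild-type embryos at 90% epiboly (log2 ratio -0.81), and 36.3 in en-pou5f3 and 42.2 in wild-type embryos at 3-ss (-0.22). The decrease was about the same at both stages by the brightest probe set and smaller at 3-ss by the other 2. In both bright probe sets, the lower wild-type signal was above the higher en-pou5f3 signal.

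The duplicates sox19a and sox19b, B1 genes of fish of which sox19b is supplied by the mother, differed little between the genotypes. The sox19a signal was 4543 in en-pou5f3 and 4679 in wild-type embryos at 90% epiboly, and 3403 in en-pou5f3 and 3767 in wild-type embryos at 3-ss. Its log2 ratios of -0.04 and -0.15 were both smaller than the spread between probe sets of a gene. For sox19b, the brighter probe set gave 1125 in en-pou5f3 and 865 in wild-type embryos at 90% epiboly, and 582 in en-pou5f3 and 866 in wild-type embryos at 3-ss. The ratio was positive at 90% epiboly (0.38) and negative at 3-ss (-0.57), each beyond that spread but within 2-fold. Of all measured probe sets, 13.1% had a ratio as high at 90% epiboly and 7.49% one as low at 3-ss. The dimmer sox19b probe set had the same signs, with log2 ratios of 0.40 at 90% epiboly and -0.17 at 3-ss, of which -0.17 lies within the spread. Its signals were 249 in en-pou5f3 and 189 in wild-type embryos at 90% epiboly, and 129 in en-pou5f3 and 145 in wild-type embryos at 3-ss.

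Among the B1 genes, sox1a alone was higher in en-pou5f3 embryos by its brightest probe set at both stages. Sox1 genes are expressed in the neural plate, the lens and neurons of vertebrates. The brightest sox1a probe set had signals of 507 in en-pou5f3 and 199 in wild-type embryos at 90% epiboly, and of 438 in en-pou5f3 and 231 in wild-type embryos at 3-ss. The en-pou5f3 signal was 2.55-fold higher at 90% epiboly (log2 ratio 1.35, with 0.45% of probe sets as high) and 1.89-fold higher at 3-ss (0.92). The other sox1a probe sets lay close to the floor and did not give a single direction. The first of them had 50.2 in en-pou5f3 and 38.8 in wild-type embryos at 90% epiboly, and 45.0 in en-pou5f3 and 26.2 in wild-type embryos at 3-ss. The second had 40.0 in en-pou5f3 and 57.0 in wild-type embryos at 90% epiboly, and 71.0 in en-pou5f3 and 26.4 in wild-type embryos at 3-ss, where its increase was at least 2.19-fold. The median over the 3 sox1a probe sets was 0.37 at 90% epiboly, so the call of sox1a as higher rests on its brightest probe set.

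**Figure D2:**
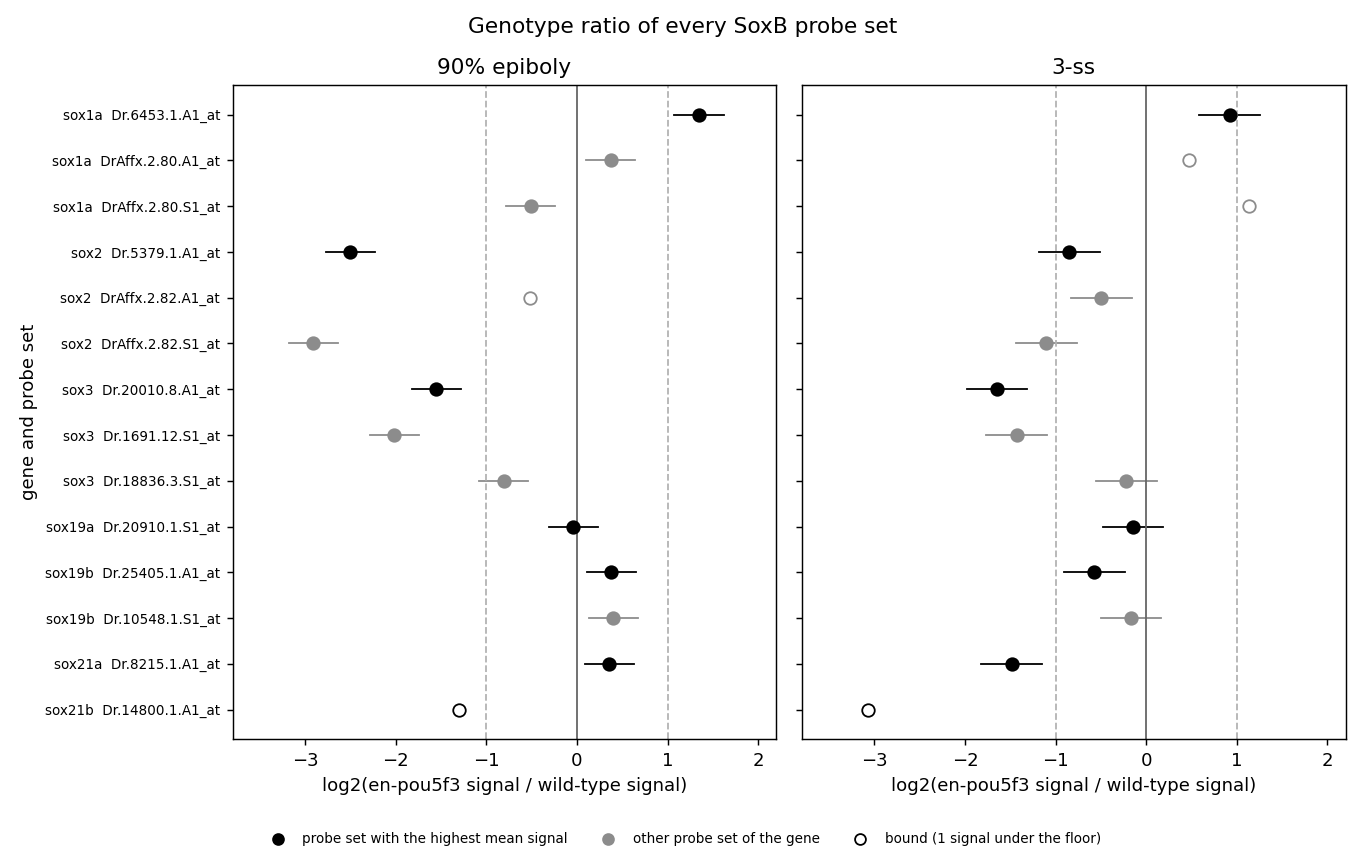
Genotype ratio (log2, en-pou5f3 over wild-type) of each SoxB probe set at 90% epiboly (left) and at 3-ss (right). Bars span 1 SD between probe sets of a gene to either side, hollow points are bounds, and dashed lines mark 2-fold. The bright probe sets of sox2 and sox3 lie left of the 2-fold line at 90% epiboly, and sox21a crosses from the right of 0 at 90% epiboly to -1.49 at 3-ss.

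The B2 genes behaved differently from each other at 90% epiboly and were both called lower at 3-ss. The single sox21a probe set had signals of 240.0 in en-pou5f3 and 187 in wild-type embryos at 90% epiboly, and of 163 in en-pou5f3 and 455 in wild-type embryos at 3-ss. Its log2 ratio was 0.36 at 90% epiboly, beyond the spread between probe sets but within 2-fold, and it was 2.80-fold lower at 3-ss (-1.49). Of all measured probe sets, 14.2% had a ratio as high at 90% epiboly and 0.60% one as low at 3-ss. The sox21b signal was 27.7 in en-pou5f3 and 80.0 in wild-type embryos at 90% epiboly, and 5.66 in en-pou5f3 and 272 in wild-type embryos at 3-ss. Both en-pou5f3 signals lay under the floor and both wild-type signals above it. The decrease of sox21b was thus at least 2.47-fold at 90% epiboly and at least 8.39-fold at 3-ss. At 3-ss, 6 of the 11970 measured probe sets had a ratio as low as this bound, the probe set of sox21b among them. With the floor added to both signals the sox21b log2 ratio at 90% epiboly was -0.90, short of 2-fold. Each B2 gene had 1 probe set, so no second probe set could be set beside these values.

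Between the stages, the wild-type signals of the B1 genes changed less than 2-fold and those of both B2 genes were higher at 3-ss. In wild-type embryos the ratio of 3-ss over 90% epiboly was 2.43-fold for sox21a (log2 ratio 1.28) and 3.40-fold for sox21b (1.77). By their brightest probe sets, the 5 B1 genes lay between -0.49 for sox2 and 0.22 for sox1a. Other probe sets of sox3 (-0.74 and -0.95), sox2 (-0.76) and sox1a (-0.81, a bound) lay below this range. None of the 7 genes was called lower at 3-ss in wild-type embryos, where 8.00% of all 11815 measured probe sets were called higher and 3.97% lower. In en-pou5f3 embryos sox2 alone among the 6 genes measured was called higher at 3-ss, by 2.23-fold (1.16), and its second probe set was 2.07-fold higher. Of all 12010 probe sets measured in en-pou5f3 embryos, 7.67% were called higher at 3-ss and 3.17% lower. By their brightest probe sets, the 5 other genes were between -0.95 for sox19b and -0.21 for sox1a. Other probe sets of sox1a (0.83 and -0.16) and sox3 (-0.15) lay above this range. The gene sox21b was under the floor at both stages and had no ratio. The SD between probe sets of a gene was 0.36 for the stage ratio in en-pou5f3 and 0.40 in wild-type embryos.

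**Figure D3:**
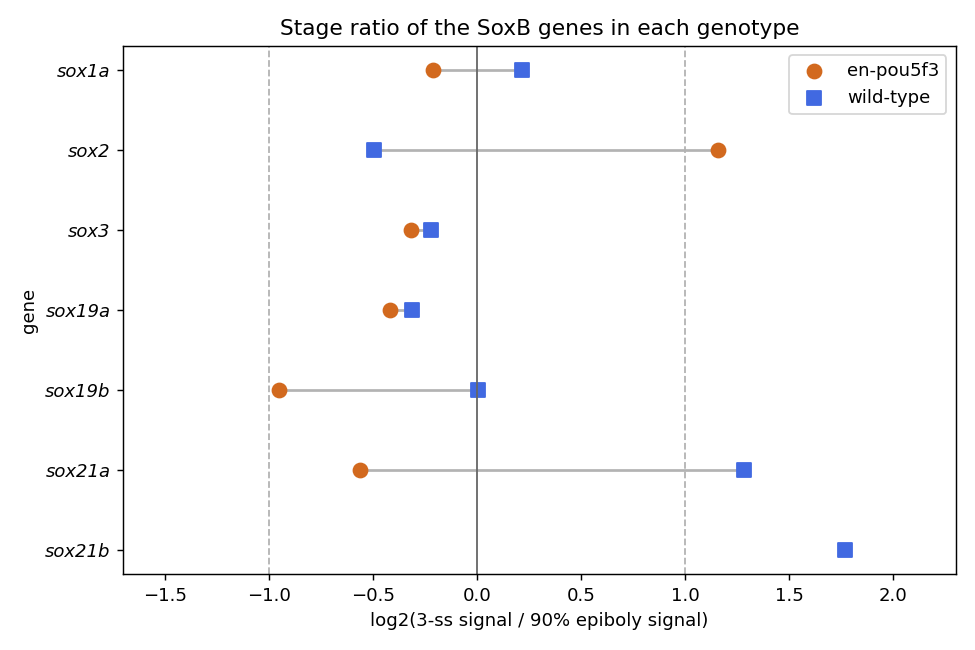
The log2 ratio of the 3-ss signal over the 90% epiboly signal for the probe set that stands for each SoxB gene, in en-pou5f3 embryos (orange circles) and wild-type embryos (blue squares), with dashed lines at 2-fold. The points lie far apart for sox2 and sox21a and close together for the brightest sox3 probe set and sox19a, and sox21b has no en-pou5f3 point because both signals were under the floor.

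The stage ratios of sox2 and sox21a had opposite signs in the genotypes. For sox2 the signal at 3-ss was 2.23 times that at 90% epiboly in en-pou5f3 embryos, and in wild-type embryos it was 1.41-fold lower at 3-ss. For sox21a the signal was 1.48-fold lower at 3-ss in en-pou5f3 embryos and 2.43-fold higher in wild-type embryos. Put as the log2 genotype ratio at 3-ss minus that at 90% epiboly, the change was 1.65 for the brightest sox2 probe set, 1.81 for the second, and -1.84 for sox21a. It was -0.95 for the brighter sox19b probe set and -0.57 for the dimmer, -0.43 for the brightest sox1a probe set and -0.10 for sox19a. For sox3 it was -0.10 by the brightest probe set and 0.59 by each of the other 2. The SD of this change between probe sets of a gene was 0.40, which the 0.59 of the other sox3 probe sets exceeded. Over the 10100 probe sets above the floor on all 4 arrays, 2.33% had a change of 1 or more upwards and 2.13% downwards. A change as large as that of sox21a was found in 0.26% of them downwards, and as large as that of the brightest sox2 probe set in 0.41% upwards. The smaller genotype ratio of sox2 at 3-ss went with a higher en-pou5f3 and a lower wild-type signal than at 90% epiboly. The larger one of sox21a went with a lower en-pou5f3 and a higher wild-type signal.

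**Figure D4:**
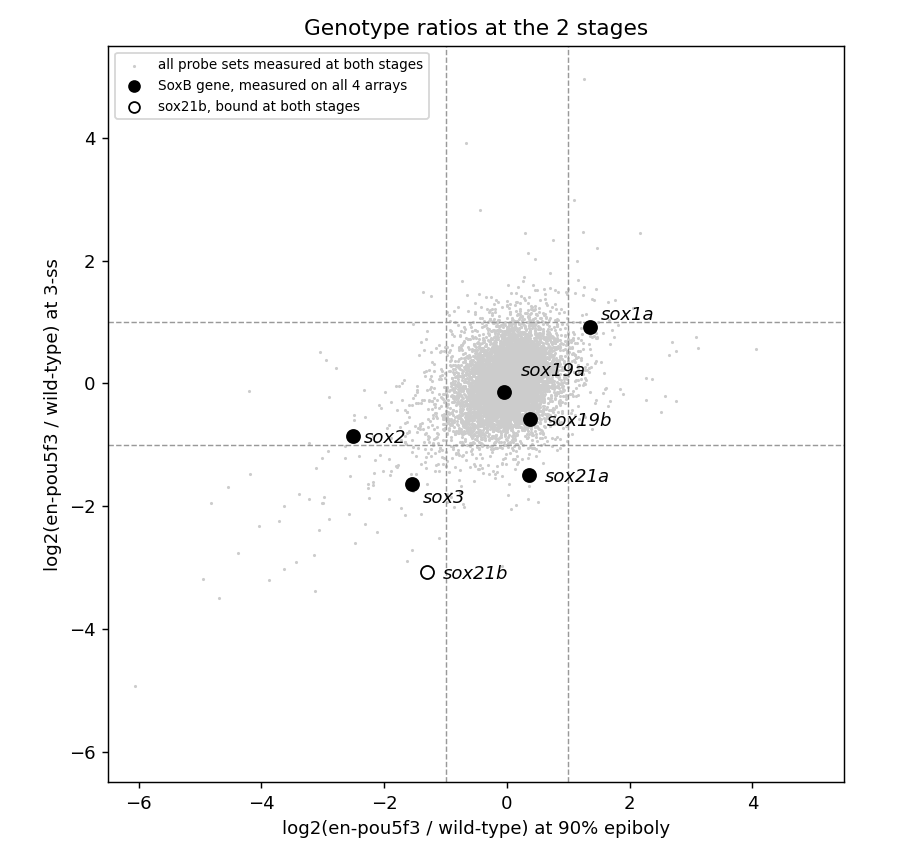
Genotype ratio (log2, en-pou5f3 over wild-type) at 90% epiboly on the horizontal and at 3-ss on the vertical axis, for all probe sets measured at both stages (grey) and for the probe set that stands for each SoxB gene (black, with sox21b hollow as a bound). Dashed lines mark 2-fold. The genes sox3 and sox21b lie in the lower left, sox2 to the left, sox21a at the bottom and sox1a at the upper right.

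The order of the 4 arrays differed between the genes. For sox2 and the bright sox3 probe sets both wild-type arrays were above both en-pou5f3 arrays, and for the brightest sox1a probe set both en-pou5f3 arrays were above both wild-type arrays. For sox19a both arrays of 90% epiboly were above both arrays of 3-ss. For sox19b the highest signal was that of en-pou5f3 embryos at 90% epiboly and the lowest that of en-pou5f3 embryos at 3-ss, in both of its probe sets. For sox21a the highest was wild-type at 3-ss and the lowest en-pou5f3 at 3-ss. For sox21b the highest was wild-type at 3-ss, and both en-pou5f3 arrays, under the floor, have no order. By the brightest probe set of each gene, the neighbours in this order that share a stage or a genotype and differed by less than the spread between probe sets were the genotypes of sox19a at each stage, the stages of sox3 in each genotype, the stages of sox1a in each genotype, and the wild-type arrays of sox19b.

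The probe sets of other genes most like each SoxB gene over the 4 arrays were found by the root mean square distance of log2 signals from their own means, over 7730 probe sets. Nearest to sox3 was mycn, which encodes a Myc family factor of proliferating progenitors, at a distance of 0.06, followed by the SoxC gene sox11b (0.14) and the chemokine receptor gene ackr3b (0.14). Nearest to sox2 were the Wnt receptor gene fzd9b (0.10), myclb (0.12) and pax2a (0.22), a gene of the midbrain-hindbrain boundary. The mycn log2 ratio was -1.56 at 90% epiboly and -1.48 at 3-ss, and that of fzd9b -2.50 and -0.59. Their closeness to the ratios of sox3 and sox2 follows from the choice by these same signals and is no separate result. For sox1a the nearest were selenop2 (0.13), ier5l (0.15) and iscub (0.15), for sox19a tipin, ppt2a.2 and saal1 (0.01 each), for sox19b phf14, med7 and haus5 (0.04 to 0.06), and for sox21a nob1, zgc:111983 and gtpbp1l (0.12 to 0.13). With 4 arrays such a distance describes these libraries alone, and sox21b was left out because it reached the floor on 2 arrays.

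The genes that flank the SoxB genes on the chromosome were taken from the RefSeq gene order, as the nearest protein-coding gene with a probe set on either side. Between such a gene and its SoxB gene lay up to 11 other coding genes (nme9 and sox21b). This search gave 14 genes. At 90% epiboly 8 of them were over the floor in both genotypes, with log2 ratios between -0.32 and -0.05, and at 3-ss 11 were, with ratios between -0.55 and 0.40. Over all measured probe sets, the shares called lower were 2.25% at 90% epiboly and 1.94% at 3-ss, and those called higher 1.30% and 1.80%. None of these neighbours passed 2-fold, and at such shares a group this small often holds none. At 90% epiboly 3 others had a bound, among them dct, next to sox21b, with signals of 63.2 in en-pou5f3 and 9.35 in wild-type embryos, which is at least 1.95-fold higher in en-pou5f3 embryos, a bound that does not place it on either side of 2-fold. The sox21b bound at that stage ran the other way, and at 3-ss, where sox21b had a bound of -3.07, dct had signals of 41.1 in en-pou5f3 and 41.0 in wild-type embryos. The other bounds at 90% epiboly were those of drc2, next to sox21a, at least 1.54-fold higher in en-pou5f3 embryos, and of inppl1b. The gene inppl1b, with 2 coding genes between it and sox3, also had a bound at 3-ss. The neighbours of sox19a and sox19b were paralogues of each other, mpdu1a and eif4a1b beside sox19a and mpdu1b and eif4a1a beside sox19b. The gene dnajc19, next to sox2, had a log2 ratio of -0.15 at 90% epiboly and of -0.10 at 3-ss, where sox2 had -2.50 and -0.85.

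Among other Sox genes, the SoxC genes, which act in progenitors leaving the cycle and in young neurons, had members with ratios close to that of sox3. Of 4 SoxC genes measured at 90% epiboly, 2 were called lower and none higher, and at 3-ss 2 of 3 were called lower and none higher. Over all measured probe sets, 2.25% were called lower at 90% epiboly and 1.94% at 3-ss. The shares called higher were 1.30% at 90% epiboly and 1.80% at 3-ss. Signals of sox11b were 512 in en-pou5f3 and 1919 in wild-type embryos at 90% epiboly (log2 ratio -1.91) and 469 in en-pou5f3 and 1326 in wild-type embryos at 3-ss (-1.50). The log2 ratio of sox11a was -1.33 at 90% epiboly and -1.28 at 3-ss by its brightest probe set. Its other probe sets were called lower at 90% epiboly (-1.64 and -1.41) but not at 3-ss (-0.98 and -0.70). The sox11a call at 3-ss thus rests on its brightest probe set. The other sox11b probe sets had -2.18 and -1.89 at 90% epiboly, and -1.60 and -0.90 at 3-ss. The SoxC gene sox4a had 0.00 at 90% epiboly and 0.08 at 3-ss. Of 3 SoxE genes measured at 90% epiboly, 1 was called higher and none lower, and at 3-ss none of 2 was called. The gene called at 90% epiboly was sox9b, of neural crest and otic tissue, by its brighter probe set. That probe set had 1547 in en-pou5f3 and 93.2 in wild-type embryos (log2 ratio 4.05), and a log2 ratio of 0.55 at 3-ss. The dimmer sox9b probe set had a bound of 0.25 at 90% epiboly and was called higher at 3-ss (1.10). The duplicate sox9a went the other way at 90% epiboly, with 2.81 in en-pou5f3 and 48.65 in wild-type embryos, a bound of -0.58. At 3-ss sox9a was under the floor in both genotypes. The SoxE gene sox10 had log2 ratios of -0.10 at 90% epiboly and -0.37 at 3-ss. The single SoxD gene on the array, sox5, stayed within 2-fold at both stages. Of the SoxF genes, sox17 and sox32 were within 2-fold at 90% epiboly, and sox32, an endoderm gene, was at least 2.54-fold higher in en-pou5f3 embryos at 3-ss. The POU genes and nanog, partners of Sox factors, were mostly within 2-fold, and 1 of 5 measured at 90% epiboly and 2 of 7 at 3-ss were called lower. These were pou2f1b at both stages (-1.11 and -1.42) and pou3f3b at 3-ss (-1.23).

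Genes that respond to loss of B1 factors in the zebrafish were mostly lower. Of the 9 on the array, 7 were called lower at 90% epiboly (median log2 ratio -2.08) and 5 at 3-ss (median -1.76), and none was called higher at either stage, where 2.25% and 1.94% of all measured probe sets were called lower. The largest at 90% epiboly were her3, a Hairy-related repressor of neurogenesis, at least 66.9-fold lower, hesx1, a gene of the anterior neural plate, at least 28.2-fold lower, and neurog1, a proneural gene, with 80.3 in en-pou5f3 and 868 in wild-type embryos (log2 ratio -3.43). At 3-ss they were her3, at least 30.5-fold lower, neurog1 (-2.91), and both pcdh18a, a protocadherin gene, and hesx1, at 3.88-fold lower for pcdh18a and at least 3.87-fold lower for hesx1. Summed signals of this list were 3253 in en-pou5f3 and 10954 in wild-type embryos at 90% epiboly, and 3362 in en-pou5f3 and 5027 in wild-type embryos at 3-ss. A large part of each sum came from cyp26a1. Its signals were 2487 in en-pou5f3 and 5027 in wild-type embryos at 90% epiboly, and 2413 in en-pou5f3 and 2142 in wild-type embryos at 3-ss. At both stages the median of this list was lower than that of the SoxB genes, and bmp2b (-2.08 at 90% epiboly) and cyp26a1 (-1.02) were called lower at 90% epiboly but not at 3-ss. The list was chosen with earlier results of these data known. The paper describes her3 as a direct target of pou5f3. It also proposes that lower soxB1 expression may account for the strong decrease of her3, since B1 factors activated its her3 reporter more than Pou5f3 did. Of the B1 genes, sox3 was called lower at both stages and sox2 at 90% epiboly. At 90% epiboly sox1a was called higher, and sox19a and sox19b stayed within 2-fold at both stages. Whether the SoxB genes have a part in the ratios of this list was not tested.

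Other neural plate genes were called in both directions at 90% epiboly. At 90% epiboly 5 of 14 measured progenitor genes were called lower and 1 higher, and at 3-ss 2 were called lower and none higher, with medians of -0.47 and -0.33. The largest decreases at 90% epiboly were those of foxd5 (-3.23), a forkhead gene of the early neural plate, lhx5 (-2.41), a forebrain gene, and zic2a (-1.39), and the increase was that of gbx2 (2.58), a hindbrain gene. At 3-ss foxd5 (-1.88) and lhx5 (-1.18) were called. At 90% epiboly 1 of 10 measured proneural and neuron genes was called lower and 1 higher, namely olig2 (-1.60) and neurod4 (1.12). At 3-ss, 2 of 12 were called lower and none higher, namely isl1a (-2.05) and elavl3 (-1.21), both genes of differentiating neurons. The shares of all measured probe sets called lower were 2.25% at 90% epiboly and 1.94% at 3-ss, and those called higher 1.30% and 1.80%. The signals of the brightest elavl3 probe set were 249 in en-pou5f3 and 197 in wild-type embryos at 90% epiboly, and 257 in en-pou5f3 and 597 in wild-type embryos at 3-ss, which, like those of sox21a, were highest in wild-type embryos at 3-ss. The 3 dimmer elavl3 probe sets did not show this, with log2 ratios of -0.18, 0.60 and 0.58 at 3-ss, and 1 of them was called lower at 90% epiboly (-1.16), so the elavl3 call rests on its brightest probe set.

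**Figure D5:**
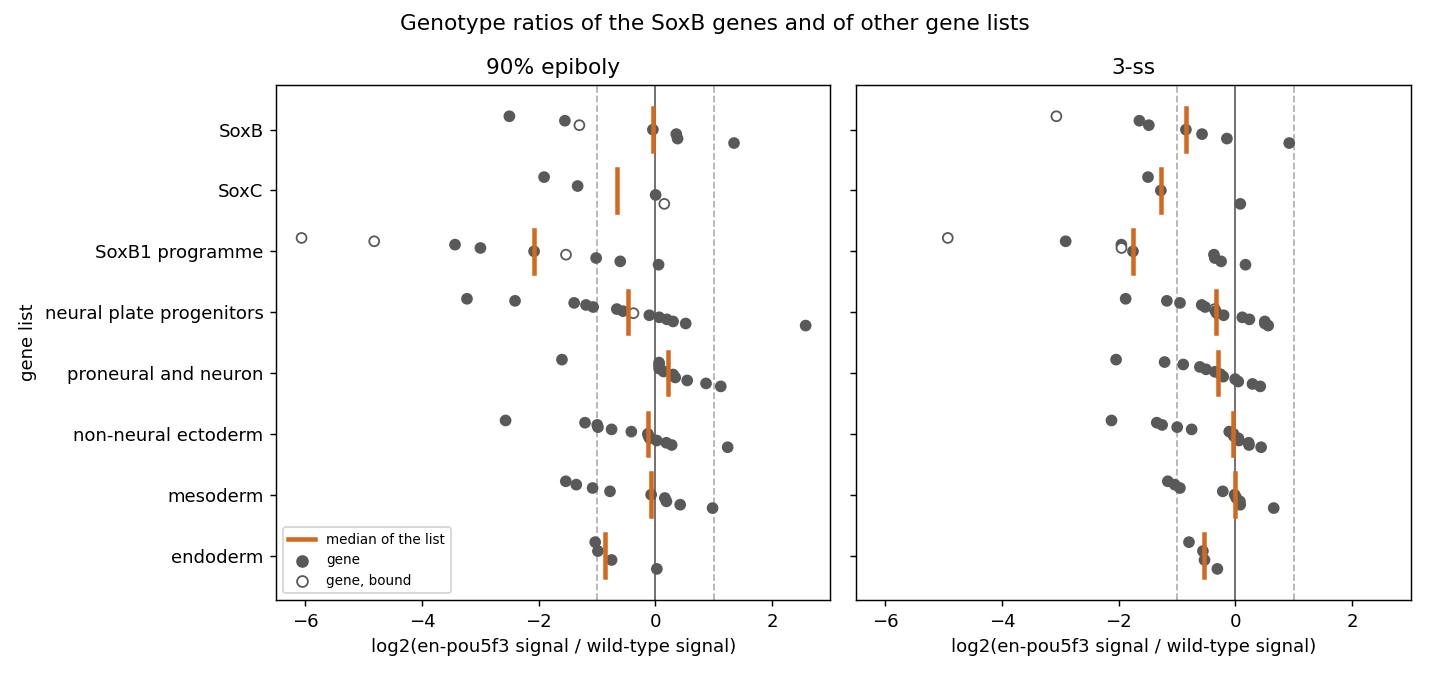
Genotype ratio (log2, en-pou5f3 over wild-type) of each gene of 8 gene lists at 90% epiboly (left) and at 3-ss (right), with hollow points for bounds, an orange bar at the median of the list and dashed lines at 2-fold. The SoxB median lies at -0.04 at 90% epiboly and at -0.85 at 3-ss, and that of the list of genes that respond to B1 factors (SoxB1 programme) at -2.08 and -1.76.

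Markers of other tissues were counted because the RNA came from whole embryos. At 90% epiboly 2 of 13 genes of non-neural ectoderm were called lower and 1 higher, and at 3-ss 3 were called lower and none higher. Over all measured probe sets, the share called lower was 2.25% at 90% epiboly and 1.94% at 3-ss, and the share called higher 1.30% and 1.80%. The gene tfap2a, of non-neural ectoderm and neural crest, led both stages with log2 ratios of -2.57 and -2.13. The summed signal of the 13 genes was 49688 in en-pou5f3 and 59362 in wild-type embryos at 90% epiboly. At 3-ss it was 50691 in en-pou5f3 and 56436 in wild-type embryos. These sums mostly read 2 keratin genes. At 90% epiboly, krt4 gave 20818 in en-pou5f3 and 22580 in wild-type embryos, and krt5 gave 15464 in en-pou5f3 and 16907 in wild-type embryos. Of 9 mesoderm genes, 3 were called lower at 90% epiboly and 2 at 3-ss, and none higher by its brightest probe set. A second tbx16 probe set was 2.95-fold higher at 90% epiboly (3248 in en-pou5f3 and 1102 in wild-type embryos), where the brightest had a log2 ratio of 0.43. Summed signals of the 9 genes were 21947 in en-pou5f3 and 19865 in wild-type embryos at 90% epiboly. At 3-ss they were 17708 in en-pou5f3 and 17321 in wild-type embryos. The gene msgn1 alone gave 12955.5 in en-pou5f3 and 11362 in wild-type embryos at 90% epiboly, so these sums mostly read msgn1. Of 4 endoderm genes, gata6 was called lower at 90% epiboly (-1.03) and none at 3-ss, and their summed signals were 2175 in en-pou5f3 and 3584 in wild-type embryos at 90% epiboly, and 1173 in en-pou5f3 and 1826 in wild-type embryos at 3-ss. No gene of these 3 lists was under the floor on all 4 arrays. The part of the tissue makeup in the SoxB ratios was not tested.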

How the data were processed

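Deposited intensity values were analysed: per the labels, the authors derived MAS5 signals (software version not given in the sources used here) on a GeneChip Zebrafish Genome Array, scaled by array. There are 15617 probe sets, of which 115 manufacturer controls were left out. The annotation gave 1 symbol for 10795 of the remaining probe sets, several for 135 and none for 4572, and 10711 of the first were matched to RefSeq by gene ID. Signals below the floor of 32.4 (80 signals of 20 control probe sets, median 6.45) were set to it. A ratio with 1 signal under it is a bound, and with both under it none was taken. A gene stands by its probe set of highest mean signal. Named are all SoxB probe sets, pou5f3, up to 3 members past 2-fold per gene list and stage, and the nearest probe sets. The genes zic2a, sox4a, sox5, sox9a, sox10, sox17, bmp2b, cyp26a1, tbx16, msgn1, krt4, krt5 and the chromosomal neighbours were chosen after their values were seen. Members and lists were chosen with earlier results of these data known. The supplementary methods speak of more arrays than the 4 used here, and the supplementary tables head the columns by heat shock; the labels, which give genotypes, were followed. Protein and promoter sequences were not used here. The script was tested on simulated data. Python 3.11.15, numpy 2.4.6, pandas 2.3.3 and matplotlib 3.10.9 were used. The 10 alternatives were 3 other treatments of the floor, 2 normalizations, 2 thresholds and 3 choices among probe sets. The number of arrays, 1 a group, limits the precision.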

Additional observations from a re-analysis of the deposited data

Results flagged for a closer look

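The stage ratio of sox2 had opposite signs in the 2 genotypes, beyond the SD between probe sets of a gene, in both bright probe sets. It was 1.16 in en-pou5f3 and -0.49 in wild-type embryos for the brightest, and 1.05 in en-pou5f3 and -0.76 in wild-type embryos for the second. The difference was not tested, since each group has 1 array.

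For sox21a, the stage ratio was -0.56 in en-pou5f3 and 1.28 in wild-type embryos. Its genotype ratio was 0.36 at 90% epiboly and -1.49 at 3-ss. The genotype ratio of the brighter sox19b probe set was 0.38 at 90% epiboly and -0.57 at 3-ss. These differences were not tested either.

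A control probe set of the manufacturer, outside all comparisons, gave signals of 5531 at 90% epiboly and 14534 at 3-ss in en-pou5f3 embryos, against 109.7 at 90% epiboly and 1670 at 3-ss in wild-type embryos. In en-pou5f3 embryos it was thus 50.4-fold higher than in wild-type at 90% epiboly, and at 3-ss 8.70-fold higher. A second control probe set was also higher in en-pou5f3 embryos, with 62.9 in en-pou5f3 and 6.35 in wild-type embryos at 90% epiboly and 111 in en-pou5f3 and 37.6 in wild-type embryos at 3-ss. The annotation names no target for either.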

How the results depend on the processing

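None of the called SoxB ratios changed sign under the 10 alternatives, and of 120 counts and medians 110 stayed within 1.5 times the count, or moved by less than the SD between probe sets of a gene. At a threshold of 3-fold, 1 gene (sox2) was lower and 0 were higher at 90% epiboly, 2 were lower at 3-ss (sox21a no longer), 0 were higher at 3-ss than at 90% epiboly in en-pou5f3 embryos, and 1 (sox21b) in wild-type embryos. At 1.5-fold, 1 gene (sox1a) was higher in en-pou5f3 embryos at 3-ss, and 1 (sox19b) was lower at 3-ss than at 90% epiboly in en-pou5f3 embryos. Both follow from the threshold. With the median over the probe sets of a gene 0 were higher at 90% epiboly, since 2 dim sox1a probe sets enter. With the probe set of largest ratio 1 (sox1a) was higher at 3-ss, and there, as at 1.5-fold, 4 were lower (sox2 added). With the floor added to both signals, 2 were lower at 90% epiboly (sox21b no longer). With no floor, or with the floor lowered to the median control signal, 1 gene (sox21b) was lower at 3-ss than at 90% epiboly in en-pou5f3 embryos, and its genotype ratio at 3-ss was -5.59 or -5.40. Of 246 values of single genes, 11 moved by more than the spread between probe sets. Leaving out probe sets that share probes took out no SoxB probe set. The sox21b probe set and the dim probe sets of sox1a, sox2 and sox3 lie near the floor, where signal over background limits their ratios. No paired analysis was possible because each group has 1 array.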
